A study of Drosophila melanogaster with 3 samples.

Results

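The weak coding-exon peaks were 1530 of the 30000 peaks called on the pooled replicates of a chromatin immunoprecipitation (ChIP-seq) experiment in fly embryos. They were chosen by 2 values, the rank of a peak by signal in the pooled list and the place of its summit. A member ranked past 7090, 2 times the length of the list that passed the authors' reproducibility analysis, and its summit lay in an annotated coding sequence (CDS) more than 500 bp from any annotated transcription start site (TSS). Of the 22910 pooled peaks past that rank, 6.68% were members, while 9986 lay in introns, 6366 at promoters (within 500 bp of a TSS), 3981 between genes and 1047 in other exonic sequence. The members lay in the coding sequence of 1360 genes.

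Chromatin came from whole Drosophila melanogaster embryos of mixed sex, 0 to 24 hours old, was sonicated to fragments of 200 to 800 bp and was precipitated through a green fluorescent protein (GFP) tag. All 3 biological replicates came from 1 transgenic line that expressed a protein with GFP at its C-terminal end. The antibody is given as one to GFP in one label and as CG6854 in another. The labels name the tagged protein as the product of CG45071, and elsewhere use CG6854 and CTPsyn, the gene of the enzyme that makes CTP, and the files do not settle which is meant. There was 1 group, so the comparisons were between classes of peaks and between replicates, and each of the 4 relaxed lists (1 per replicate and 1 pooled) held 30000 peaks. The optimal list, which came from the irreproducible discovery rate (IDR) analysis, held 3545 peaks, the same peaks as the first 3545 pooled ranks. Peak lists carry no read totals, so the depth behind each peak is unknown.

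Transcription factors are usually mapped to promoters and to enhancers in introns and intergenic sequence, and protein-coding exons hold few of the strongest sites in most such maps. Relaxed lists run far into background on purpose, because IDR needs to see the ranks at which replicates stop being alike. Fly coding exons are richer in G and C than introns, and they are broken into pieces that can be shorter than a sonicated fragment.

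Sequence around the summit is shown for 5 of the 6 members of highest pooled signal outside 1 chromosome arm that is not printed, because they show what kind of sequence lay under the best of these peaks. Each is written 5′ to 3′ on the coding strand, from Release 6 of the genome (RefSeq, the same assembly as dm6), 100 bp on either side of the summit, with coding bases in capitals and intron in lower case. For Ubr1 the 46 bases of the window before the start codon, which are untranslated, are left out, and the 155 coding bases are shown.
Ubr1: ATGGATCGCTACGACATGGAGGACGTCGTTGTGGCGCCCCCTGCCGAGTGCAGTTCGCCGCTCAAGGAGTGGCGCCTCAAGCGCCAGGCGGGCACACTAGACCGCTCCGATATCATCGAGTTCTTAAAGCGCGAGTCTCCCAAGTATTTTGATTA
CG7668: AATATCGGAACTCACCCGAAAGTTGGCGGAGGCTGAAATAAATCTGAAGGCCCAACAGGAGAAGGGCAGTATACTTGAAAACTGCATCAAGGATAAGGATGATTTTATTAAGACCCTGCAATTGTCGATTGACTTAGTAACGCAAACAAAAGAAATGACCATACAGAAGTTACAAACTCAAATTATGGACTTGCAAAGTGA
corto: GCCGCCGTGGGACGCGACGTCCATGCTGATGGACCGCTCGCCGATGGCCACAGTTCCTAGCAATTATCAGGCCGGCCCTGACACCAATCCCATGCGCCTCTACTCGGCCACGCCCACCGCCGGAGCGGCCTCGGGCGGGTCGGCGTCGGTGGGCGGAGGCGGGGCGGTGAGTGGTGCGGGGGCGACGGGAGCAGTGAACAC
chinmo: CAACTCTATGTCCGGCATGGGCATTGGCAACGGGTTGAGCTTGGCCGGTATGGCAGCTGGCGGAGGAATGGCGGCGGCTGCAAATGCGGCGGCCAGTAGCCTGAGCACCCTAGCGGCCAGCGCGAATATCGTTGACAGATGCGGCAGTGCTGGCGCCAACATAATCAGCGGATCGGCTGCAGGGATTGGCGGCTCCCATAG
Pli: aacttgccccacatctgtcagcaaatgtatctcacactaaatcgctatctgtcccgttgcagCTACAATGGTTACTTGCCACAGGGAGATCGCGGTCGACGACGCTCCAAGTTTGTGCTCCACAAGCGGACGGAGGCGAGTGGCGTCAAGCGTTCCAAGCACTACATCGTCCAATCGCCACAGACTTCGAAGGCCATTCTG
The CG7668, corto and chinmo windows of 201 bases were wholly coding. The Pli window crossed a splice acceptor, with 62 bases of intron before 139 coding bases. Content of G and C ran from 39.3% for CG7668 to 71.6% for corto. None of the printed stretches held CAGCAG on either strand, nor GAGAG, the core of the site bound by GAGA factor.

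By pooled signal, the caller's own value for each peak, the members ran from 31.0 to 76.5 with a median of 37.1. These values describe the choice and were not tested. The median was 41.9 for weak intronic peaks, 40.5 for weak intergenic peaks and 46.4 for weak promoter peaks. The members were thus the lowest of these classes in the pooled list, at a median rank of 22675. The authors' −log10 q of a member ran from 0.192 to 1.76 with a median of 0.325. A q of 0.05 or lower was given to 34 members (2.22%), 8.25% of weak intronic, 7.11% of weak intergenic and 13.3% of weak promoter peaks. All 3545 optimal peaks had such a q. The members ranked lower than these classes, and q was not compared at like rank. Every member was 436 bp wide, the commonest width in the list.

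The share of pooled summits in coding exons rose with rank. Rank and place of the summit are the values that the rule used, so this share is a description and was not tested. It was 0.254% (9 peaks) in ranks 1 to 3545 and 0.564% (20 peaks) in ranks 3546 to 7090. Past the limit it was 1.58% up to rank 10000, 3.62% up to 15000, 6.34% up to 20000, 9.08% up to 25000 and 10.6% (532 peaks) in the last 5000. Eligible coding sequence, meaning coding bases over 500 bp from a TSS, was 13.9% of the 133.9 Mb of the 6 chromosome arms. Even the last 5000 ranks, with a Wilson 95% interval of 9.82% to 11.5%, stayed below that share.

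**Figure D1:**
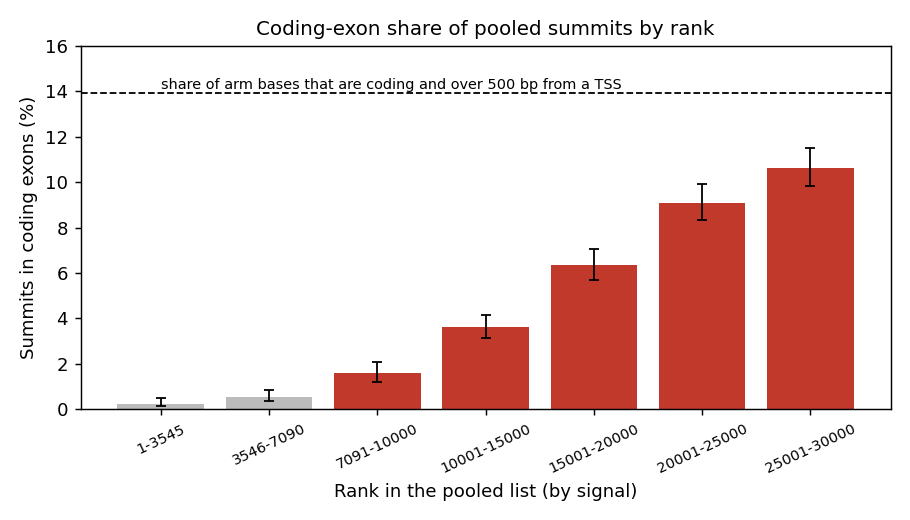
Bars give the share of pooled summits in coding exons over 500 bp from a TSS (percent, y axis) in classes of pooled rank (x axis), with Wilson 95% intervals; red bars hold the members and grey bars the ranks before them. The share climbs from 0.254% in the first class to 10.6% in the last, below the dashed line at 13.9%, the share of arm bases that are eligible coding sequence.

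The limits of the rule cut through a continuous range. The member of highest signal was the Ubr1 peak at rank 7108 with a signal of 76.5, and the nearest coding summit on the other side of the limit was in CG42709 at rank 6958 with 77.4. A summit in CG7148 lay 501 bp from a TSS and was a member, while one in Tapdelta lay 500 bp away and was not. Without the distance rule 2338 weak peaks had a coding summit, 808 of them within 500 bp of a TSS.

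A replicate was said to hold a member when a peak of its relaxed list covered the pooled summit. Replicate ranks are those of the covering peak, and the same peak could cover several members, as it did in Sdb and CG9003. Replicate 1 held 38.7% of members (592), replicate 2 held 43.1% (660) and replicate 3 held 56.7% (867). Over all pooled peaks past the rank limit the shares were 50.7%, 62.1% and 59.3%. The members were therefore below this background in each replicate, by a small margin in replicate 3. The pooled list was made from the same reads, so these shares describe how far the lists coincide and do not come from independent material.

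Against weak intronic peaks, of which 50.03%, 62.4% and 58.3% were held, the members differed by −11.3, −19.3 and −1.65 percentage points in replicates 1, 2 and 3. The mean difference was −10.7 ± 8.81 points (SD, n = 3), and an exact two-sided sign-flip permutation test gave p = 0.25, the smallest value that 3 replicates allow, so the design cannot reach 0.05. Replicate 2 carried much of it, since the mean without replicate 2 was −6.50 points. Against weak intergenic peaks the differences were −10.6, −16.2 and 0.274 points, with a mean of −8.82 and an exact permutation p of 0.5. Rank moved with this comparison, because members ranked lower than intronic peaks. Weighted to the members' own rank classes, the intronic differences became −4.99, −11.4 and 5.47 points, with a mean of −3.65 and an exact permutation p of 0.75. So replicate 3 held members more often than intronic peaks of like rank, and replicates 1 and 2 held them less often.

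**Figure D2:**
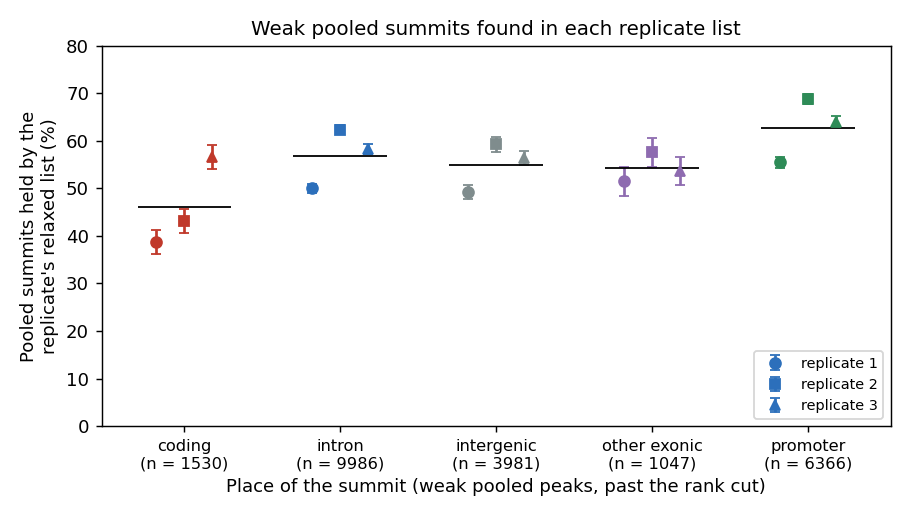
Points give the share of weak pooled summits covered by a peak of each replicate's relaxed list (percent, y axis) by the place of the summit (x axis), with Wilson 95% intervals, and black lines give the mean of the 3 replicates. The coding column has the lowest points in replicates 1 and 2 (38.7% and 43.1%), while its replicate 3 point at 56.7% lies among the intron and intergenic points.

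The replicates also differed in their own lists. Coding summits over 500 bp from a TSS made up 7.27% of replicate 1's list, 5.35% of replicate 2's and 8.90% of replicate 3's. Median GC content around the summits of those lists was 41.8%, 41.3% and 42.8%. Replicate 3, which held the most members, had the highest value of both, and the part of these differences in the result was not tested.

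Of the members, 112 (7.32%, Wilson 95% interval 6.12% to 8.74%) were held by all 3 replicate lists, against 17.9% of all pooled peaks past the limit and 17.1% of weak intronic peaks. Another 526 (34.4%) were held by 2 lists and 731 (47.8%) by 1, against 42.0% and 34.4% of all pooled peaks past the limit. No list held 161 members (10.5%), against 5.71% of all pooled peaks past the limit. Rank moved with this contrast. Between ranks 20001 and 25000 no list held 11.9% of members, 7.13% of weak intronic and 8.46% of weak intergenic peaks. Past rank 25000 these were 18.8%, 16.4% and 19.8%. The commonest pattern was replicate 3 alone, with 349 members, while 214 were held by replicate 2 alone and 168 by replicate 1 alone. Of the pairs, 214 members were held by replicates 2 and 3, 192 by 1 and 3, and 120 by 1 and 2. These patterns were counted for the members only.

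The share held by all 3 fell with pooled rank in the members and in the intronic peaks. Up to rank 10000 it was 50% of 46 members and 56.4% of intronic peaks. It was 26.0% and 31.2% up to rank 15000, then 7.89% and 10.2% up to 20000, 2.42% and 4.65% up to 25000, and 1.13% and 2.20% in the last 5000. The members were the lower of the pair in each of the 5 classes, by margins smaller than the pooled 7.32% against 17.1%. The members' Wilson 95% interval covered the intronic value in 4 of the 5 classes and stayed below it between ranks 20001 and 25000 (1.36% to 4.29%). A replicate peak that covered a member did not always point at the same base. Its own summit lay a median of 38, 24.5 and 22 bp from the pooled one in replicates 1, 2 and 3, and within 100 bp in 77.0%, 82.7% and 82.5% of cases. When the replicate summit had to lie within 100 bp, 3.07% of members were held by all 3.

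Of the 20 members of highest signal, 19 are described here, and 11 of these were held by all 3 lists. Between ranks 7091 and 10000 all 3 lists held 56.4% of weak intronic peaks. The first member was the Ubr1 peak (X:16967400-16967835, dm6), in the first of 10 coding exons of the gene for an N-end rule ubiquitin ligase. It ranked 26497, 7248 and 8969 in replicates 1, 2 and 3, so replicate 1 placed it near the end of its list. The lola peak was in coding exon 5 of 6 of a BTB zinc-finger transcription factor gene, 82.5% along the coding sequence. It ranked 12289, 6350 and 13886, and all 3 lists held it. The CG7668 peak (3L:20003265-20003700) was the most even of these first members, at ranks 10383, 8332 and 9339.

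The corto peak (3R:5084463-5084898) lay in the only coding exon of a gene for a chromatin factor and ranked 4954, 15215 and 9443. The chinmo peak (2L:1694614-1695049), in a second BTB zinc-finger gene, lay 10070 bp from the nearest TSS and ranked 15407, 12432 and 7605. The Pli peak (3R:23862958-23863393), in the Pellino gene of immune signalling, ranked 5459, 22671 and 9383. Prx2, a peroxiredoxin gene with 1 coding exon, had a peak at ranks 13203, 18181 and 8554. In these 4 genes every replicate held the summit, and the best rank came from replicate 1 for corto and Pli and from replicate 3 for chinmo and Prx2.

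The Sirt1 peak, in the first coding exon of a protein deacetylase gene, was missing from replicate 1 and ranked 8215 and 7230 in replicates 2 and 3. The same pattern held for Sdb (5915 and 10540), CG9003 (7591 and 12841), CG14401 (11858 and 6641), Srp54 (9894 and 10823), which encodes a splicing factor, and sdt (7888 and 5420), which encodes the polarity scaffold Stardust. Of the 19, replicate 1 thus missed 6, more than the other lists. This was not particular to the members. Between ranks 7091 and 10000 replicate 1 held 76.1% of weak intronic peaks, against 90.6% and 86.4% in replicates 2 and 3. Tim17b1, a mitochondrial import gene, was missed by replicate 3 only and ranked 7350 and 17757 in replicates 1 and 2. Nedd4, a ubiquitin ligase gene, was missed by replicate 2 only, with ranks of 13083 and 3398 in replicates 1 and 3. The remaining members of the 19 were held by all lists. Nak, which encodes a Numb-associated kinase, ranked 10718, 13300 and 8130. HmgD, an HMG-box chromatin protein gene, ranked 3829, 18450 and 22358. CG10631 ranked 8000, 25218 and 4526, and Serinc ranked 9083, 14111 and 7734.

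**Figure D3:**
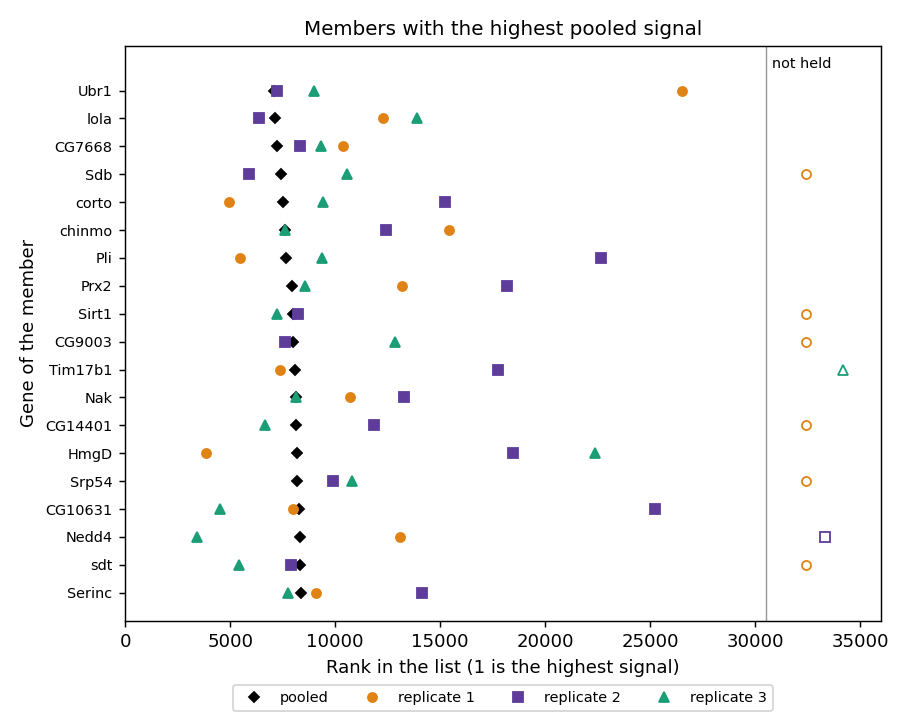
Each row is 1 of 19 members of highest pooled signal, named by its gene, with its rank in the pooled list (black) and in each replicate list (x axis, 1 is the highest signal); open symbols on the right mark lists that did not hold the summit. Pooled ranks lie between 7108 and 8364, while replicate ranks of the same members spread from 3398 to 26497.

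In 2 members the summit lay inside a peak among the first 3545 of every replicate. The Ifrd1 member (2L:2873454-2873889, pooled rank 9175) was covered by replicate peaks at ranks 741, 1469 and 1844. The Gr89a member (3R:16497642-16498077, pooled rank 9898), in a gustatory receptor gene, was covered at ranks 919, 793 and 2010. Both overlapped an optimal peak, at pooled rank 1217 with its summit 200 bp away for Ifrd1, and at pooled rank 932 with its summit 199 bp away for Gr89a. These replicate ranks are therefore those of peaks that also overlie a stronger neighbour. Altogether 21 members overlapped a pooled peak before the rank limit, 7 of them an optimal peak. An optimal summit lay within the width of a peak for 7 of 1530 members, 233 of 9986 weak intronic and 56 of 3981 weak intergenic summits. On every 50th eligible coding base this was so for 685 of 372830 positions. In replicate 3 the best-ranked holder of a member was at 923, for a peak in bif, which encodes the cytoskeletal protein Bifocal. The bif peak was at 4724 in replicate 1 and missing from replicate 2.

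By place in the gene, the members were more often near the 5′ end than eligible coding bases were. First coding exons held 13.6% of members (208) and 9.27% of eligible coding bases. Internal exons held 50.5% against 57.1%, last exons 27.1% against 25.3%, and single coding exons 8.82% against 8.35%. With the coding sequence cut into 3 equal parts, 31.0% of members were in the first, 35.3% in the middle and 33.7% in the last, against 25.5%, 36.9% and 37.6% of bases. Cut into 10 equal parts, the first held 9.08% of members and 5.17% of bases, the widest gap of the 10. The later parts showed no steady trend. Part 4 held 8.04% of members and 10.4% of bases, and part 10 held 11.8% and 10.9%.

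Distance from the TSS showed the same lean. The members lay a median of 1488.5 bp from the nearest TSS, and the farthest was 37888 bp away. Between 501 and 1000 bp lay 31.2% of members and 24.0% of eligible coding bases, and between 1001 and 2000 bp 30.8% and 28.9%. From 2001 to 5000 bp the shares were 27.5% and 29.2%, from 5001 to 10000 bp 7.32% and 11.8%, and farther out 3.14% and 6.15%. The Wilson 95% interval for the nearest class, 28.9% to 33.5%, did not reach the share of bases, though it covers counting error only and neighbouring peaks are not independent.

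**Figure D4:**
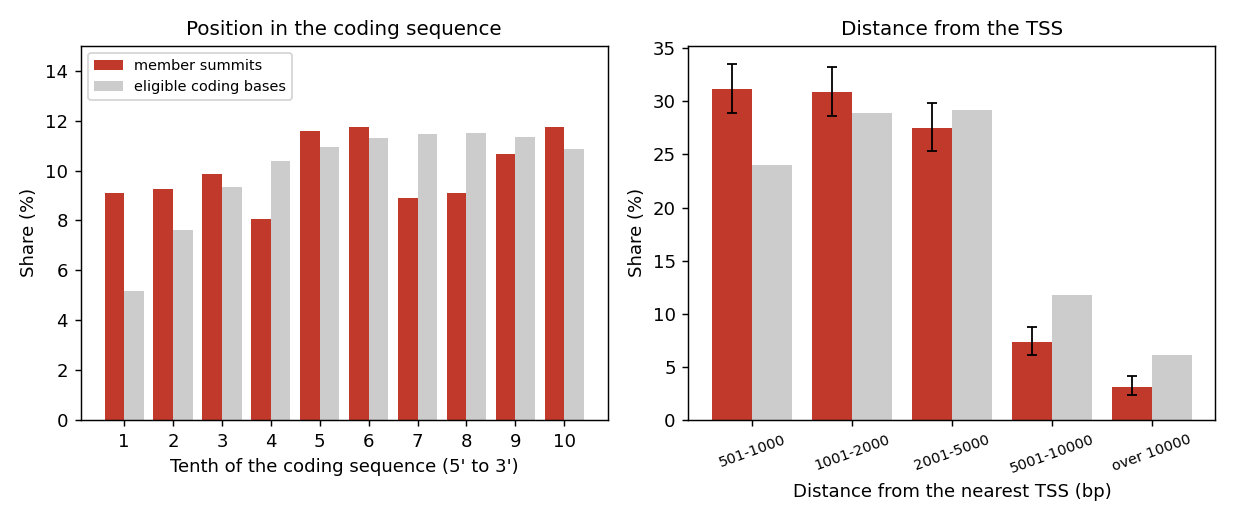
Red bars give the members and grey bars the eligible coding bases (percent, y axis) by 10 equal parts of the coding sequence from 5′ to 3′ (left) and by distance from the nearest TSS in bp with Wilson 95% intervals (right). Members exceed bases in the first part (9.08% against 5.17%) and between 501 and 1000 bp (31.2% against 24.0%), and fall below them past 2000 bp.

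Lengths of coding exons here count only the coding part of the exon, its coding piece. Under a member it was 679 bp long at the median, against 825 bp around an eligible coding base. Coding pieces of 2000 bp or more held 10.8% of members and 17.2% of bases. With a width of 436 bp, most member peaks reached beyond their coding piece. The whole peak lay inside 1 coding piece for 553 members (36.1%), and the 201 bp around the summit did so for 902 (59.0%). The summit was a median of 135.5 bp from the nearer end of its coding piece. For 82 members the summit also lay in an untranslated region of another transcript of the gene annotation. The 5 longest coding exons with a member were in bt (9471 bp), which encodes the giant muscle protein Projectin, btsz (7035 bp), FASN1 (6728 bp), a fatty acid synthase gene, CG42795 (6634 bp) and N (6149 bp), the Notch receptor gene. Of these 5, bt was held by replicates 1 and 2, btsz and CG42795 by replicate 2 alone, FASN1 by replicate 3 alone and N by none.

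Base composition followed the coding location. Median GC content within 100 bp of a member summit was 53.7% (interquartile range 49.3% to 58.2%), against 41.3% for weak intronic and weak intergenic summits and 36.3% for optimal summits. Since the members were chosen to be coding, the closer reference was windows on every 50th eligible coding base, whose median was 52.2% (47.3% to 56.7%). The members were thus 1.49 percentage points above coding sequence of the same class.

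**Figure D5:**
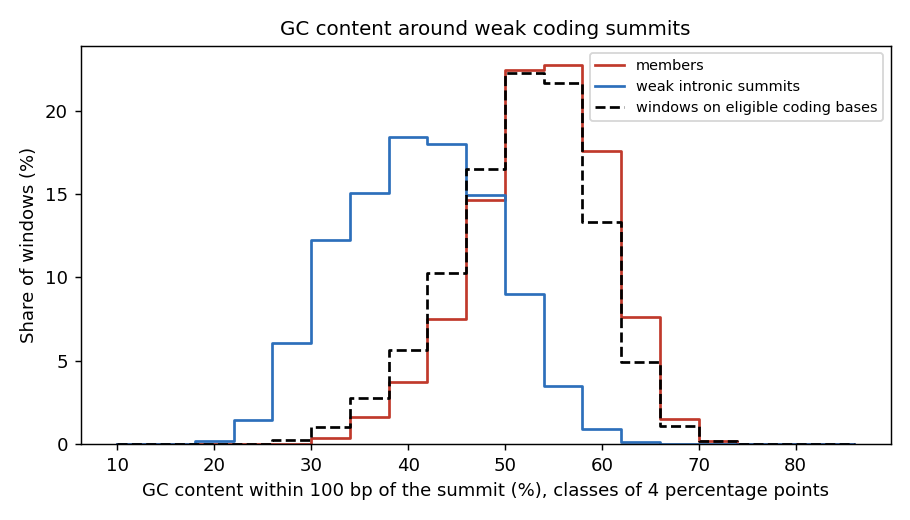
Lines give the share of windows (percent, y axis) by GC content within 100 bp of the summit (x axis) for the members (red), weak intronic summits (blue) and windows on eligible coding bases (dashed). The members' curve lies over the coding windows, shifted slightly to the right (medians 53.7% and 52.2%), and apart from the intronic curve with its median of 41.3%.

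Short motifs were counted on both strands in the same windows, as a description. CAGCAG, a repeat that is common where glutamine codons run together, was in 31.1% of member windows, 15.7% of all weak windows and 29.9% of eligible coding windows. GAGAG was in 22.0%, 24.9% and 23.1%. GATAAG was in 7.25% of member windows, against 10.8% of all weak windows and 6.96% of coding windows. CACACACA was in 0.850% against 7.03% and 0.602%, and TATAAA in 6.14% against 22.4% and 6.84%. The E-box CACGTG was in 3.27%, 2.68% and 2.98%. TATCGATA, the DRE, was in 3 members (0.196%), against 0.986% of all weak windows and 0.176% of coding windows. CAGGTAG, the letters of the Zelda site, was in 37 members (2.42%, Wilson 95% interval 1.76% to 3.32%), against 1.02% and 1.89%, and in 2 of the 37 it lay at an exon end of the gene. For each of the 8 motifs the member share was closer to coding windows than to all weak windows.

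The 1360 genes with a member were 11.0% of the 12415 protein-coding genes with eligible coding sequence. Of them, 1207 had 1 member, 137 had 2, 15 had 3 and 1 had 5, and 1 member lay in the coding sequence of 2 genes. These genes had a median of 1753 bp of eligible coding sequence, against 1008 bp over all eligible genes. With genes in 3 equal classes of eligible length, 3.67%, 10.2% and 19.0% of genes had a member. Across arms the members followed eligible coding bases closely, from 17.0% of members and 17.9% of bases on X to 23.7% and 23.8% on 3R. Chromosome 4 was the exception, with 2 members (0.131%) and 1.37% of bases, and it had 0.271% of all weak peaks.

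The gene with 5 members was gukh, which encodes GUK-holder, a partner of the synaptic scaffold Discs large. Its 5 peaks ranked between 13447 and 28583 in the pooled list, and 4 of them were in its long coding exon 5. Those at pooled ranks 13514 and 16187 overlapped each other. None of the 5 was held by all 3 lists. Replicate 1 held 4 of them at ranks of 4695, 13423, 19550 and 10883, while replicate 2 held the remaining one. Sdb had 3 members, of which the peak at pooled rank 10332 was held by all lists at 19480, 7553 and 7351. The tou gene, which encodes a chromatin remodelling factor, also had 3, and 1 of them was held by all lists at 20877, 29652 and 17595. Of the 15 genes with 3 members, 7 are named, those whose best member had the highest signal. The 3 members each of bif, Imp (an RNA-binding protein gene), heca (headcase), CG42399 and sba (six-banded) were held by 2 lists at most. For Imp and heca 1 member each was held by none. Some members of Sdb, bif, Imp, heca and sba also overlapped each other, so these counts are of peaks and not of separate sites. When only the strongest of overlapping pooled peaks was kept, 1406 members in 1301 genes remained.

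Read against the 11.0% of all eligible genes, counts in gene groups are given with the group's median eligible length, since longer genes had a member more often. Of genes for structural proteins with long coding sequence, 7 of 15 extracellular matrix genes had a member (median eligible length 5730 bp) and 6 of 13 sarcomere genes (4195 bp). LanB2, a laminin chain gene, had a peak at pooled rank 16577 that was held by replicates 2 and 3, and the collagen IV genes vkg and Col4a1 had peaks at 18069 and 20431. The Col4a1 peak was held by all lists at ranks of 21824, 28763 and 12175. The Tm1 peak, in a tropomyosin gene, was at pooled rank 9752 and at 8320 and 3209 in replicates 1 and 3. Those of Mlc2, a myosin light chain gene, and up, the troponin T gene, were at pooled ranks 14304 and 17592, each in 2 lists. In cadherin and adhesion genes, which are as long (5464 bp), 4 of 24 had a member, among them Cad88C with 2, Dscam1 and Nrg. None of 13 mucin genes had one (Wilson upper bound 22.8%), at a median of 4117 bp.

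Counts in groups of metabolic, translation, chaperone and cytoskeletal genes were mixed. Glycolytic enzyme genes (median eligible length 917 bp) had a member in 4 of 11, with Pgk (phosphoglycerate kinase) held by all lists at 10294, 18084 and 7122. Pglym78 (phosphoglycerate mutase) was held by replicate 2 alone at 10655, and Ldh (lactate dehydrogenase) by none. Translation factor genes (923.5 bp) had one in 9 of 52, led by eIF6 at pooled rank 16930, eIF4A at 22563 and eIF3a at 24531. Of cytoplasmic ribosomal protein genes, 1 of 61 had a member, at a median eligible length of 230 bp, and 4 of 62 mitochondrial ribosomal protein genes (299 bp) did, led by mRpL17. Heat shock protein genes (1575.5 bp) had one in 2 of 24, Hsc70-3 and Hsp83, which encode chaperones. Actin and tubulin genes (1131 bp) had one in 2 of 17, alphaTub85E and Act57B, both held by replicate 3 alone.

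Among regulators, 8 of 31 Polycomb, trithorax and insulator genes had a member, at a median eligible length of 2831 bp. The peaks of Sce and Su(z)2, both Polycomb group genes, and of kto, a Mediator subunit gene, were each held by 1 list. Of segmentation genes (1212.5 bp) 4 of 20 had one, with 2 each in wg, the Wnt ligand gene, and Kr, a gap gene. The strongest wg peak was at pooled rank 17982 and the strongest Kr peak at 19188, and the slp2 peak at 20212. Of neural regulators (1318 bp) 3 of 24 had one, the POU genes nub and pdm2 and the basic helix-loop-helix gene da. None of 8 Hox genes (1620.5 bp) had one, with a Wilson upper bound of 32.4%. None of 27 replication-dependent histone genes (429 bp) had one, with an upper bound of 12.5%.

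Of 179 odorant, gustatory and ionotropic receptor genes, 5 had a member at a median eligible length of 772 bp, including Gr89a, described above, Or85e and Or30a. Of 95 cuticle protein genes 2 had one, Cpr67B and TwdlR, at a median of 355 bp. Of 22 ion channel genes (2341.5 bp) 2 had one (9.09%, Wilson 95% interval 2.53% to 27.8%). That interval covers both the 11.0% of all eligible genes and the 19.0% of the longest length class. The 2 were the potassium channel genes slo and Shab, and the Shab peak was held by all lists at 8927, 21386 and 16452. These counts per group are small, and they describe where the members lay without a test.

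An optimal summit lay within 500 bp of a TSS of 351 member genes (25.8%, Wilson 95% interval 23.6% to 28.2%). The share was 15.1% of all eligible genes and 13.8% of eligible genes without a member. With any pooled summit at the promoter the shares were 74.0% with a member and 51.7% without. Length moved with this difference, and it was present within each of the 3 classes of eligible length. Among the shortest genes 18.4% of member genes had an optimal promoter summit against 10.1% of the others, in the middle class 21.4% against 13.9%, and among the longest 29.6% against 18.1%. These classes are broad, the longest reaching from above 1479 bp to 68850 bp, so lengths can still differ within a class. The difference was not tested.

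The members of genes with an optimal promoter summit were 412 of the 1530. They were held by replicates 1, 2 and 3 in 42.2%, 42.2% and 55.8% of cases, against 37.4%, 43.5% and 56.98% for members of the other genes. All 3 lists held 7.52% of the first and 7.25% of the second. Members were nearer to optimal peaks than coding sequence at large. The nearest optimal summit was a median of 7007.5 bp away, against 11821.5 bp for windows on eligible coding bases, 9645 bp for weak intronic and 18667 bp for weak intergenic summits. Within 1000 bp lay 4.51% of members (69), 2.32% of coding windows and 7.33% of weak intronic summits. These distances describe position on the genome, and genes that lie close together share their neighbours.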

How the data were processed

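Peak lists from 3 biological replicates of 1 group were analysed on dm6; the dm3 lists were not used. According to the submitters' list of files, relaxed calls were made for single replicates against 1 control file each and for the 3 replicates pooled, and IDR over these calls gave the optimal list. Which aligner, caller and IDR threshold the authors used is not given in the sources used here. Peaks were ranked within a list by the deposited signal, the caller's value as the authors left it. The deposited −log10 q-values are the caller's and were only described. Read depth is unknown, and nothing beyond the words biological replicate says how the collections were separated.

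Summits were placed on Ensembl release 115 of Release 6, with transposable elements left out, in the order promoter, coding, other exonic, intron and intergenic. Every deposited peak lay inside its chromosome arm, and 99.6% of 13945 coding genes had ATG at the annotated start. Exon number and position come from the transcript with the longest coding sequence that holds the summit. For 1 pooled peak the summit lay past the peak's end and was set to its last base. Wilson 95% intervals stand beside shares and reflect counting error alone. Computation used Python 3.11.15, numpy 2.4.6, pandas 2.3.3 and scipy 1.17.1, and the placement and overlap steps were checked on simulated data.

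Members, lists and the naming rule were chosen with earlier results of these data known. By rule, named genes were those of the 20 members of highest signal, 8 genes with the most members (1 with 5 and 7 of the 15 with 3, ties going to the gene whose best member had the higher signal), up to 3 genes for each of 18 lists, the members at the rule's limits, those in the first 3545 peaks of every replicate, and the 5 longest coding exons. The members with the best rank in each replicate, and the 5 printed windows, were added to these. The symbol castor had no match. Values of 2 genes that the rule names are not reported here. Alternatives changed the rank limit, TSS distance, transcript, summit, overlap rule, list length, window and promoter size. The comparison weighted by rank, the 100 bp limit on replicate summits and the 3 length classes were chosen after seeing the data.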

Additional observations from a re-analysis of the deposited data

How the results depend on the processing

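The number of members, the number of genes, and the share in the last coding exon stayed within 1.5 times or within their intervals under the 7 alternatives run for each, and no result changed sign. The share of members held by all 3 lists was 7.32%. It was 5.39% past 3 times the optimal list, 12.7% with an overlap of 1 bp, 1.503% with the first 15000 peaks of each list, 3.07% with replicate summits within 100 bp, and 15.2% to 21.3% when 1 replicate was left out and both others had to hold the summit. That rise comes from asking for fewer lists. The mean difference over replicates stayed below 0 in 15 of 15 alternatives against intronic peaks. Leaving out 1 replicate gave −15.3 to −6.50 points. Single replicates did not all stay below 0. Weighted to the members' rank classes, replicate 3 was at 5.47 points and the mean at −3.65.

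With a TSS distance of 200 bp, 28.7% of members lay in the last of 3 parts of the coding sequence and 21.8% of their genes had an optimal promoter summit; with 1000 bp these were 37.5% and 28.5%. The promoter share was 17.4% with a promoter window of 200 bp and 30.2% with 1000 bp, against 10.2% and 17.9% of all eligible genes, and 18.4%, 21.4% and 29.6% in the 3 classes of eligible coding length. Median GC content was 55.4% within 50 bp and 52.1% within 250 bp. The cause of these changes was not tested. Peak lists without read numbers limit every value here to presence and rank, and no exact test over 3 replicates could reach 0.05.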

Other observations

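Replicate holding varied with the place of a member in its gene. All 3 lists held 25 of the 208 members in first coding exons (12.02%) and 43 of the 772 in internal exons (5.57%). They held 32 of the 415 in last exons (7.71%) and 12 of the 135 in single coding exons (8.89%). The share was 17.9% over all pooled peaks past the rank limit, and places were not compared at like rank. Over 3 equal parts of the coding sequence the members' shares were 11.0%, 3.33% and 8.14%, lowest in the middle. Median pooled signal was 39.0 in first exons and 36.7 in internal ones, so signal moved with place, and its part was not tested. Members in single coding exons were held by 28.9% in replicate 1, 51.9% in replicate 2 and 60% in replicate 3, a wider range over replicates than in first exons (47.1%, 51.0% and 60.1%).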
